A study of Polistes dominula with 96 samples.

Results

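Brain transcriptomes of old and mature workers were compared in *Polistes dominula*, the European paper wasp, 12 days after the queen had been taken from the nest. The comparison covered 27 of the 96 wasps of the series, which were 12 old wasps aged 23 to 28 days since emergence (median 24 days) and 15 mature wasps aged 11 to 18 days (median 16 days). Members were chosen by the labelled treatment, sampling day and age. All 27 wasps came from laboratory nests kept on water, cardboard and fly larvae, and all had lost their queen. The comparison thus holds queen removal constant, while age varies along with the traits named below. The other 7 wasps sampled at day 12 were 5 aged 19 to 22 days and 2 aged 3 and 8 days, and they were used only where age was treated as a number. The remaining libraries came from 26 queens, 12 workers of sham-treated control nests, and wasps sampled 3 days after removal, of which 6 old and 7 mature wasps served as a second set of similar ages (old 24 to 33 days, median 27, and mature 11 to 17 days, median 13).

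The 27 wasps came from 10 nests. Old wasps came from 7 nests and mature wasps from 8 nests, and 5 nests gave both ages (8 old and 8 mature wasps). Another 2 nests gave only old wasps (4 in all) and 3 nests gave only mature wasps (7 in all), so that part of any difference between the groups cannot be told apart from a difference between nests. Because all wasps were sampled on 1 day after removal, an older wasp had also spent more of its adult life with the queen, and the wasps aged 11 days emerged after the queen had gone. Age and days spent with a queen therefore cannot be told apart here. The study also picked its queen removal wasps to span ovarian development, dominance and a combined score of queen-like phenotype. It reports that this score was correlated with age among them. Reproductive and dominance state were thus not held constant between the age groups.

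Paper wasp workers are not sterile, and after the loss of a queen a worker can activate its ovaries and take over egg laying, with older workers usually first in line in this species. Juvenile hormone promotes egg yolk production and dominance in paper wasps, the yolk precursor vitellogenin is made mainly in fat body, and *Kr-h1* is the transcription factor that insect cells switch on in direct response to juvenile hormone. Adult insect brains also change with age as such, in the first days after emergence above all, when neural circuits and flight-related metabolism mature.

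Each library came from the dissected brain of 1 wasp. Library totals lay between 11606155 and 17696319 counts in old wasps (median 13204906.5) and between 10480464 and 18124755 counts in mature wasps (median 13633504). The mean total, old minus mature, differed by -191693 counts (two-sided permutation test, 100000 resamples, p = 0.793), and the difference within the 5 nests with both ages was -118733 counts (p = 0.905). Neurons and glia gave clear signal in every library, with the 10 neuron markers summing to 1835 CPM or more and the 7 glia markers to 1903 CPM or more, where CPM is the count relative to library size after trimmed-mean (TMM) scaling. The libraries also held RNA typical of muscle (5203 to 42049 CPM summed over 16 markers), of photoreceptors (936 to 13245 CPM over 20 markers) and of fat body (5410 to 20312 CPM over 9 markers). Whether other tissue entered the dissections was not tested. In such samples, fewer cells of a type and less RNA per cell cannot be told apart.

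No gene differed between old and mature wasps after adjustment (edgeR quasi-likelihood test with Benjamini-Hochberg adjustment, 0 of 10794 genes tested, 0.0%). The smallest adjusted p was 0.0513. At an unadjusted p under 0.05 there were 1175 genes (10.9% of those tested), of which 594 were higher in old wasps (5.5%) and 581 were lower (5.38%). A test against a 1.5-fold difference gave 0 genes as well. DESeq2, the tool the study used, called 38 genes on the same counts (0.352%), 23 higher and 15 lower in old wasps, and 35 of these had an unadjusted p under 0.05 in edgeR. Of the 38 genes, 24 differed by less than 2-fold.

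The precision of the comparison was high for most genes in the fit that leaves out nest. The median standard error of the log2 fold change was 0.11, and the 95% interval lay inside a 1.5-fold difference in either direction for 73.7% of genes and inside 2-fold for 86.2%. For the remaining genes the interval also held differences of more than 2-fold. These intervals treat nestmates as independent. The correlation between nestmates, estimated over all genes, was 0.195, so that the intervals may be too narrow.

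The genes nearest to the threshold are described next. They were chosen after their values were seen, as those of smallest p in each direction with a usable name, besides the 1 gene of smallest p in either direction, and none of them passed the adjusted threshold of 0.05 in edgeR. Counts over the nests with both ages use the same wasps that chose these genes, and are no separate check. The gene closest to it, LOC107070465, has no symbol in the reference table and no product name in the study's tables. Its level was 41.6 to 68.8 CPM in old wasps (median 53.6) and 28.2 to 52.03 CPM in mature wasps (median 39.4). Of the old wasps, 7 lay above every mature wasp, and 11 mature wasps lay below every old wasp. The log2 fold change of LOC107070465, old over mature, was 0.47 (SE 0.08, 95% interval 0.30 to 0.65, edgeR adjusted p = 0.0513), and the mean was higher in old wasps in 5 of the 5 nests with both ages. In the day 3 wasps, which are different animals, its log2 fold change was 0.07 (unadjusted p = 0.662).

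The gene with the symbol *tj*, named after the large Maf transcription factor that Drosophila uses in gonads and in neurons, but with a product name of another kind in the annotation, ranged from 13.9 to 64.98 CPM in old wasps (median 28.7) and from 8.35 to 24.2 CPM in mature wasps (median 14.6). All 15 mature wasps lay below the old median, while 2 old wasps (replicates 2 and 14) lay below the mature median. For *tj* the log2 fold change was 1.09 (SE 0.22, adjusted p = 0.121), and 5 of 5 nests were higher in old wasps. At day 3 it was 0.21 (unadjusted p = 0.691), and 0.69 without the mature replicate 23 (p = 0.171), which had 68.3 CPM of *tj*. Thymidylate kinase (LOC107066827), an enzyme of thymidine nucleotide synthesis, reached 18.3 to 33.2 CPM in old wasps (median 26.0) against 11.7 to 23.7 CPM in mature wasps (median 17.9), and 8 old wasps exceeded every mature wasp. The difference was 0.46 on the log2 scale (SE 0.10, adjusted p = 0.121), and it was 0.32 at day 3 (unadjusted p = 0.0177). 

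Other genes on the higher side included the homolog of the Bardet-Biedl syndrome 2 protein (LOC107067154), part of a complex that carries cargo into cilia, at a log2 fold change of 0.50 (adjusted p = 0.146), and *unc80*, a subunit of the sodium leak channel that sets the resting potential of neurons, at 0.41 (adjusted p = 0.169). At day 3 these 2 genes stood at -0.06 and -0.23 (unadjusted p = 0.841 and 0.256). The spermidine synthase gene *SpdS* showed one of the smallest and tightest differences. It ranged from 47.05 to 59.2 CPM in old wasps (median 55.5) and from 39.5 to 53.0 CPM in mature wasps (median 48.2), and 8 old wasps lay above every mature wasp although the medians were close. For *SpdS* the log2 fold change was 0.23 (SE 0.05, adjusted p = 0.146) at day 12 and -0.16 at day 3 (unadjusted p = 0.0858), and the difference between the days was 0.39 (interaction, unadjusted p = 0.00018), which also did not pass adjustment. The RNA-binding zinc finger protein 346 (LOC107064339) and the splicing factor subunit LSm2 (LOC107073931) had log2 fold changes of 0.34 and 0.40 at day 12 and of 0.30 and 0.24 at day 3 (unadjusted day 3 p = 0.00937 and 0.035).

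Among genes lower in old wasps, *nw* had the smallest p. Its symbol is that of a Drosophila gene for a lectin-like secreted protein that shapes wings, and its product is uncharacterized in this wasp. Old wasps had 15.8 to 48.9 CPM (median 18.9) and mature wasps 21.5 to 133 CPM (median 46.5). All but 1 old wasp (replicate 14) lay below the mature median, and all 15 mature wasps lay above the old median. The log2 fold change of *nw* was -1.24 (SE 0.26, adjusted p = 0.121), it was lower in old wasps in each of the 5 nests with both ages, and it was -0.22 at day 3 (unadjusted p = 0.659).

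A cation-transporting P5-type ATPase of the 13A3 kind (LOC107068056), a family that in mammals moves polyamines across membranes, ranged from 81.5 to 176 CPM in old wasps (median 133) and from 127 to 285 CPM in mature wasps (median 176). The groups overlapped, with 4 old wasps below every mature wasp and 7 mature wasps above every old wasp. On the log2 scale the difference was -0.52 at day 12 (SE 0.12, adjusted p = 0.146) and -0.43 at day 3 (unadjusted p = 0.0118), the same direction in wasps that the day 12 comparison did not use. Other genes on the lower side included a beta-1,3-galactosyltransferase (LOC107067552; log2 fold change -0.34), the aquaporin LOC107072138 (-0.49), sterol O-acyltransferase 1 (LOC107068995; -0.42), which stores sterols as esters, the lysosomal protease cathepsin O (LOC107074116; -0.39) and a fatty acyl-CoA reductase (LOC107065849; -1.69). Their adjusted p-values were 0.169, 0.169, 0.169, 0.169 and 0.156.

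**Figure D1:**
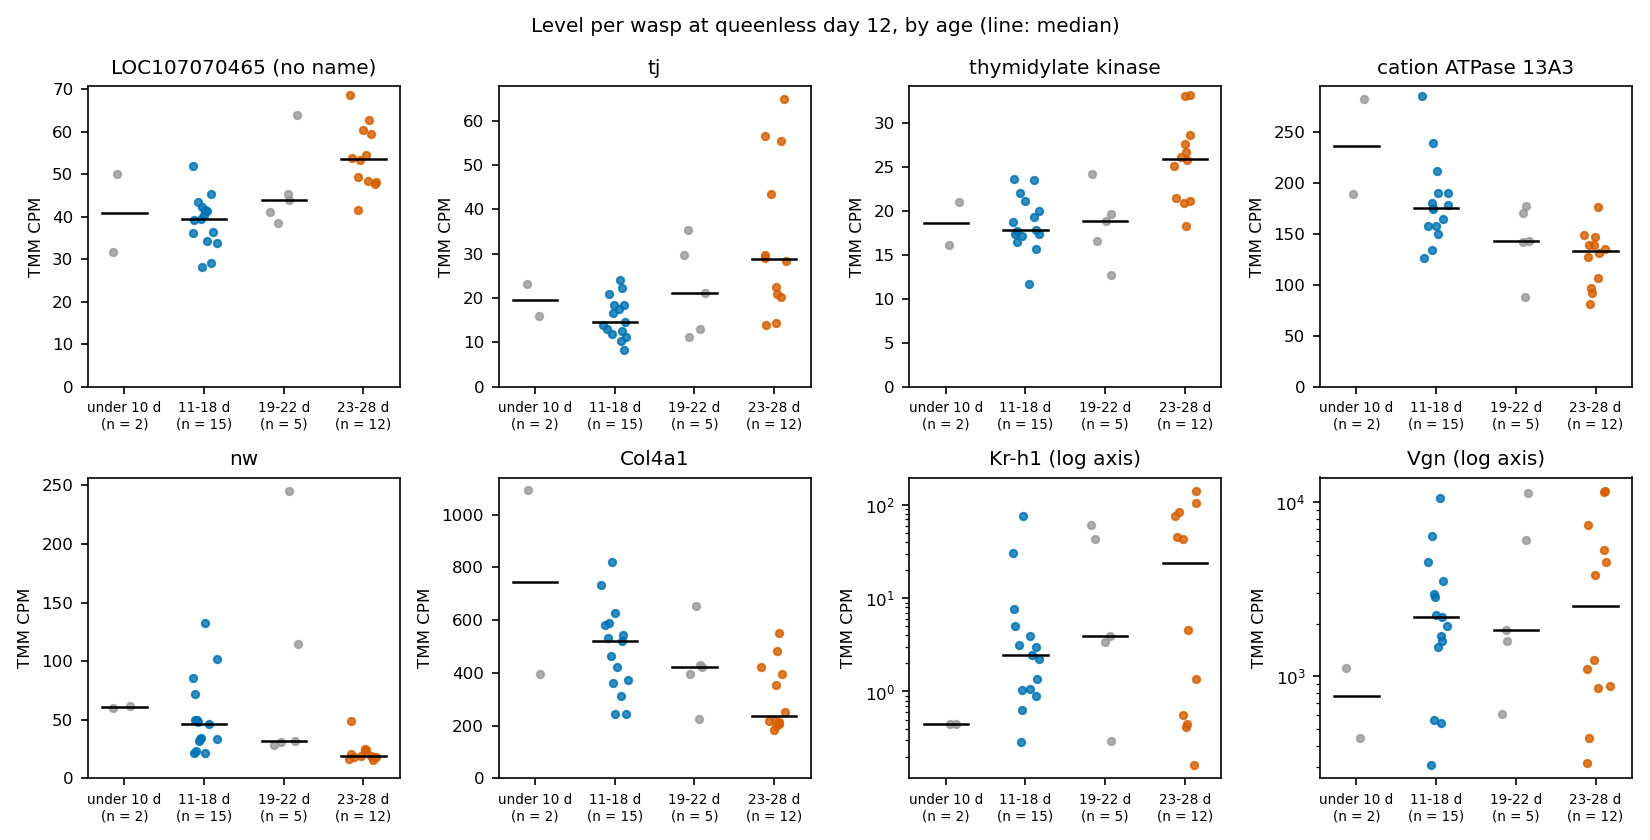
Level of 8 genes in each day 12 wasp (vertical axes, TMM CPM; *Kr-h1* and *Vgn* on log axes) by age group, with 1 point per wasp and a line at the group median; grey points are the 7 wasps outside the comparison. For LOC107070465, *tj* and thymidylate kinase the old wasps (orange) sit mostly above the mature wasps (blue), for cation ATPase 13A3, *nw* and *Col4a1* mostly below, and for *Kr-h1* and *Vgn* both groups span most of the axis.

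The largest fold changes came from single wasps. Mature replicate 8, a wasp aged 16 days from nest 14, had 38 genes more than 8-fold above the median of the 27 wasps for that gene, by a criterion set after the values were seen, and these 38 genes held 17.5% of its counts. Glucose dehydrogenase (LOC107063902), an enzyme that oxidises glucose and is secreted in several insects, alone took 11.2% of the counts of that library (95% Wilson interval 11.1 to 11.2%, which covers counting error only). It stood at 141073 CPM there, against a median of 2.53 CPM and a highest value of 2328 CPM in the other 26 wasps. *Hbg3*, which is an alpha-glucosidase (maltase) of the hypopharyngeal gland in honey bees, took 2.33% (29474 CPM) and a regucalcin-like gene (LOC107071585) 1.79% (22665 CPM). Glucose dehydrogenase and *Hbg3* belong to gene families with similar copies, among which reads may have been divided.

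The same genes were high in few other wasps. Among the mature wasps, glucose dehydrogenase reached 2328 CPM in replicate 1 and 1097 CPM in replicate 18, and the wasps aged 19 to 22 days included 1 with 67842 CPM (replicate 30). The highest old wasp had 128 CPM. The log2 fold change of *Hbg3* was -9.31 (SE 2.07, adjusted p = 0.146) over all 27 wasps and -4.02 without mature replicate 8. That of glucose dehydrogenase moved from -9.002 to -3.77, that of hyaluronidase (LOC107068133), a venom and saliva enzyme, from -5.17 to -1.52, and that of the regucalcin-like gene from -3.21 to -0.40. At day 3 the same 4 genes had positive log2 fold changes (8.89 for glucose dehydrogenase, 3.70 for *Hbg3*, 2.55 for hyaluronidase and 1.61 for the regucalcin-like gene), with 1 old wasp (day 3 replicate 8) at 30959 CPM of glucose dehydrogenase and a median of 4.50 CPM in the 6 old wasps. None of these passed adjustment at either day. High levels of these genes thus occurred in single wasps of several age groups, and the sign of the group difference followed which group held such a wasp.

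A second set of genes was high in 2 other mature wasps. LOC107065350 has no symbol in the reference table and no product name in the study's tables. It stood at 1393 CPM in mature replicate 17 and at 292 CPM in mature replicate 27. Every old wasp had 12.9 CPM or less, and the median was 0 in both groups. LOC107066896, annotated as similar to a translation initiation factor, had 741 CPM and 152 CPM in the same 2 wasps and 48.6 CPM in the highest old wasp. The *yellow* family gene *Y-y* reached 2.89 CPM in replicate 17. Their log2 fold changes were -6.04, -3.70 and -3.77, none past adjustment. At day 3 LOC107065350 reached 5316 CPM in 1 mature wasp (day 3 replicate 15). Markers of exocrine glands summed to 48.04 to 423 CPM in old wasps and to 57.9 to 29805 CPM in mature wasps, the highest again in replicate 8, and 3 of the 5 gland markers had medians under 1 CPM. Whether gland tissue entered the dissections of these wasps was not tested.

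**Figure D2:**
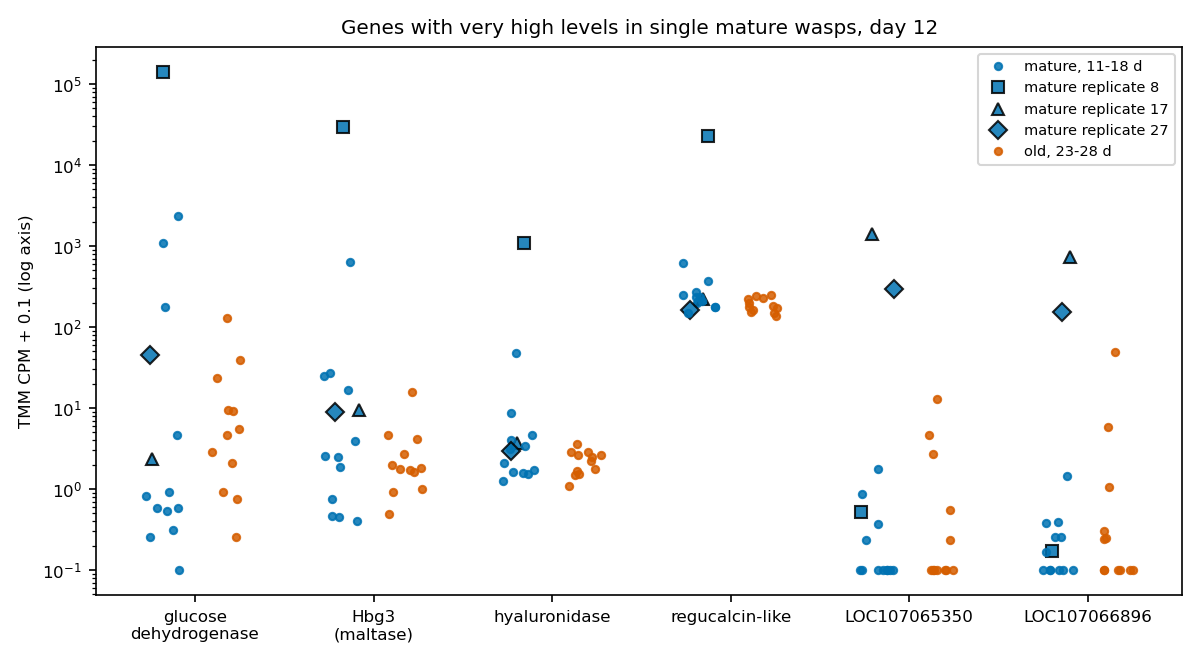
Level of 6 genes in each of the 27 wasps (vertical axis, TMM CPM plus 0.1, log axis), mature wasps in blue and old wasps in orange, with mature replicates 8, 17 and 27 marked by shape. Replicate 8 stands alone at the top for glucose dehydrogenase (141073 CPM), *Hbg3*, hyaluronidase and the regucalcin-like gene, and replicates 17 and 27 for the last 2 genes.

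Genes tied to reproduction and its hormones were highly variable within both ages. *Kr-h1*, taken here by its symbol, since the annotation gives another zinc finger protein as its product, ranged from 0.164 to 141 CPM in old wasps (median 23.8) and from 0.289 to 76.6 CPM in mature wasps (median 2.45). Of the old wasps, 7 lay above the mature median and the other 5 lay at or under 1.36 CPM, so that the old group held wasps near both ends of the range, while 13 of 15 mature wasps lay below the old median and only replicates 17 and 27 exceeded it. The log2 fold change of *Kr-h1* was 2.18 (SE 0.88, 95% interval 0.37 to 3.99, unadjusted p = 0.0198, adjusted p = 0.351). The mean was higher in old wasps in 5 of 5 nests with both ages, and the fit with nest as a block gave 4.10 (unadjusted p = 0.00309). With the wasp's ovarian index as a covariate it was 0.80 (unadjusted p = 0.31), and at day 3 it was 1.00 (unadjusted p = 0.408). As a background, control workers had 0.145 to 4.37 CPM of *Kr-h1* and queens 0.199 to 159 CPM (median 69.3).

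Vitellogenin (*Vgn*), the yolk precursor, did not separate the ages. Old wasps had 316 to 11608 CPM (median 2536) and mature wasps 311 to 10557 CPM (median 2197), and the ranges coincided almost fully. Old over mature, the log2 fold change was 0.49 (SE 0.53, 95% interval -0.60 to 1.58, adjusted p = 0.789). The gene *jhamt*, for the enzyme that completes juvenile hormone, had 83.8 to 668 CPM in old wasps (median 173) and 96.1 to 258 CPM in mature wasps (median 141), with 2 old wasps above every mature wasp. For *jhamt* the log2 fold change was 0.41 (SE 0.23, adjusted p = 0.519). *shd*, which makes the active form of ecdysone in Drosophila, was the other hormone gene with an unadjusted p under 0.05, at -0.38 (adjusted p = 0.242), and the 24 hormone genes tested held 1 gene in each direction at that level with a median log2 fold change of 0.02.

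The hexamerins, storage proteins of larvae and young adults, were low in most of these wasps. *Hex70a* had 0.755 to 80.6 CPM in old wasps (median 3.44) and 0.216 to 184 CPM in mature wasps (median 5.12), a log2 fold change of -0.63 (SE 0.85, adjusted p = 0.842). *HEX70b* and *Hex70c* reached at most 0.401 and 0.18 CPM in old wasps and 1.84 and 1.46 CPM in mature wasps, and their log2 fold changes of -1.998 and -2.36 (adjusted p = 0.321 and 0.331) rest on few counts. These copies are similar in sequence, and reads may have been divided between them. *Hex110* stood at -0.65 (adjusted p = 0.682).

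Neither of the 2 defensin-1 genes, which encode antimicrobial peptides, passed adjustment. *Def1* was 22.3 CPM in old replicate 15 and 1.35 CPM or less in every other old wasp, and mature wasps had 0 to 1.33 CPM. Its log2 fold change of 2.51 (SE 0.88, adjusted p = 0.283) stands beside a DESeq2 estimate of 0.00, for which single extreme counts were replaced in groups of this size. The second gene, LOC107063828, had 23.8 to 66.2 CPM in old wasps (median 42.6) and 40.3 to 69.04 CPM in mature wasps (median 51.8), a log2 fold change of -0.28 (adjusted p = 0.398). *Cyp4g15* and *bond*, which take part in the synthesis of cuticular hydrocarbons in insects, had log2 fold changes of 0.59 and 0.50 (adjusted p = 0.874 and 0.808), with both groups spanning more than 10-fold.

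Type IV collagen was lower in old wasps on average. *Col4a1*, a chain of the collagen that forms the basement membrane around the brain and its tracheae, had 182 to 549 CPM in old wasps (median 235) and 242 to 821 CPM in mature wasps (median 520). All 15 mature wasps lay above the old median, 6 old wasps lay below every mature wasp, and the old mean was lower in each of the 5 nests with both ages. The log2 fold change of *Col4a1* was -0.68 (SE 0.20, 95% interval -1.09 to -0.27, adjusted p = 0.199), it was -0.67 with nest as a block (unadjusted p = 0.0152), and it was -0.72 at day 3 (unadjusted p = 0.0131). The second chain, LOC107067849, was at -0.50 at day 12 (adjusted p = 0.309) and at -0.66 at day 3 (unadjusted p = 0.0176). Of 9 extracellular matrix genes tested, 2 were lower in old wasps at an unadjusted p under 0.05 (*Col4a1* and *Ndg*, the linker protein nidogen, at -0.31) and none was higher.

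Gene lists were read against all genes tested, of which 5.5% were higher and 5.38% lower in old wasps at an unadjusted p under 0.05 with a median log2 fold change of 0.01. Genes described from a list were mostly picked for a small p in the same wasps. Their counts of wasps and of nests are no separate check. The genes of oxidative phosphorylation, the mitochondrial machinery that makes ATP from respiration, were lower in old wasps more often than not. Of 48 such genes, 12 were lower and 0 were higher at that level, 45 had a negative log2 fold change, and the median was -0.11, a small difference. None passed adjustment. The tricarboxylic acid cycle, which feeds electrons to the respiratory chain, had 5 of 8 genes lower and 0 higher, with a median of -0.21.

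**Figure D3:**
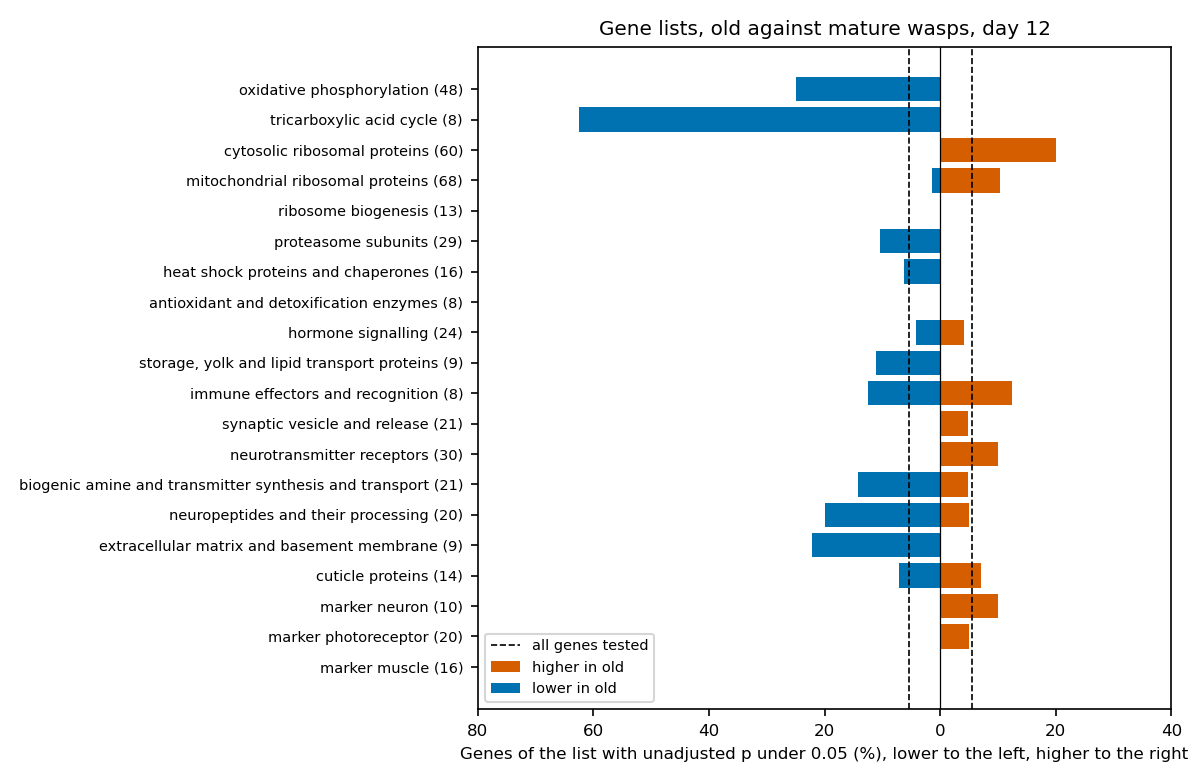
Share of each gene list with an unadjusted p under 0.05 (horizontal axis, percent of the genes tested, number in parentheses), lower in old wasps to the left and higher to the right; dashed lines mark the shares over all genes (5.38% and 5.5%). Oxidative phosphorylation (12 of 48) and the tricarboxylic acid cycle (5 of 8) extend to the left and cytosolic ribosomal proteins (12 of 60) to the right; no single gene of these lists passed adjustment.

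*ATPsyngamma*, the rotating shaft subunit of ATP synthase, was the member with the smallest p. It had 212 to 278 CPM in old wasps (median 247) and 218 to 479 CPM in mature wasps (median 301). No old wasp exceeded the mature median, and 10 mature wasps lay above every old wasp. Its log2 fold change was -0.30 (SE 0.08, 95% interval -0.47 to -0.13, adjusted p = 0.184), it was lower in old wasps in each of the 5 nests with both ages, and it was -0.34 at day 3 (unadjusted p = 0.00674). The core subunits of complex III, *UQCR-C1* and *UQCR-C2*, stood at -0.27 and -0.29, the ATP synthase subunits *ATPsynB* and *ATPsynC* at -0.23 and -0.24, and the complex I subunit *ND-B17.2* at -0.15, with adjusted p-values between 0.251 and 0.309. In the tricarboxylic acid cycle, *kdn* (citrate synthase) was at -0.31, *Pdhb* (pyruvate dehydrogenase) and *Idh3a* (isocitrate dehydrogenase) at -0.24, *Mdh2* (malate dehydrogenase) at -0.21 and *Scsalpha1* (succinyl-CoA ligase) at -0.18. At day 3 these genes stood, in that order, at -0.37, 0.01, -0.04, -0.05 and -0.16. Summed over that list, the day 12 median was 4324 CPM in old and 4976 CPM in mature wasps, with mature replicate 1 highest (6331 CPM). The day 3 medians were 4803 CPM in old and 4576 CPM in mature wasps.

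Summed over the 48 oxidative phosphorylation genes, old wasps had 12788 to 17604 CPM (median 15216) and mature wasps 12715 to 23988 CPM (median 15707). The groups overlapped over most of their range, and the gap between the medians was small beside the spread. Within nests, the mean sum was lower in old than in mature wasps in all 5 nests with both ages (14156 against 23988 CPM in nest 3, 16335 against 19578 in nest 14, 14464 against 14997 in nest 33, 15813 against 16487 in nest 42 and 14010 against 15610 in nest 48). The 2 widest gaps were those of nests 3 and 14, whose only mature wasps were replicates 1 and 8.

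With nest as a block, 25 of the 48 genes were lower in old wasps and 0 were higher at an unadjusted p under 0.05 (4.06% and 3.46% of all genes), all 48 had a negative log2 fold change, and the median was -0.21. Without mature replicates 1 and 8 in that fit, 0 of 48 were lower or higher, 42 remained negative, and the median was -0.07. Nests 3 and 14 then held only old wasps, which left nests 33, 42 and 48 to inform the age difference. That fit therefore also had less power. In the comparison without the block, leaving out replicate 8 gave 10 lower genes and a median of -0.09, leaving out replicate 1 gave 10 lower and 1 higher with a median of -0.08, and leaving out all of nest 3 gave 7 lower with a median of -0.06. The shares over all genes in the fits that left out wasps are not given here. Replicate 1, aged 11 days, also had the highest summed level of the 16 muscle markers among the 27 wasps (42049 CPM, against 5203 to 42049 CPM in mature and 6779 to 34424 CPM in old wasps). Of the muscle markers, 0 of 16 had an unadjusted p under 0.05, 14 were negative and the median log2 fold change was -0.12, and it was 0.01 without replicate 1. The part of muscle RNA in the mitochondrial difference was not tested.

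**Figure D4:**
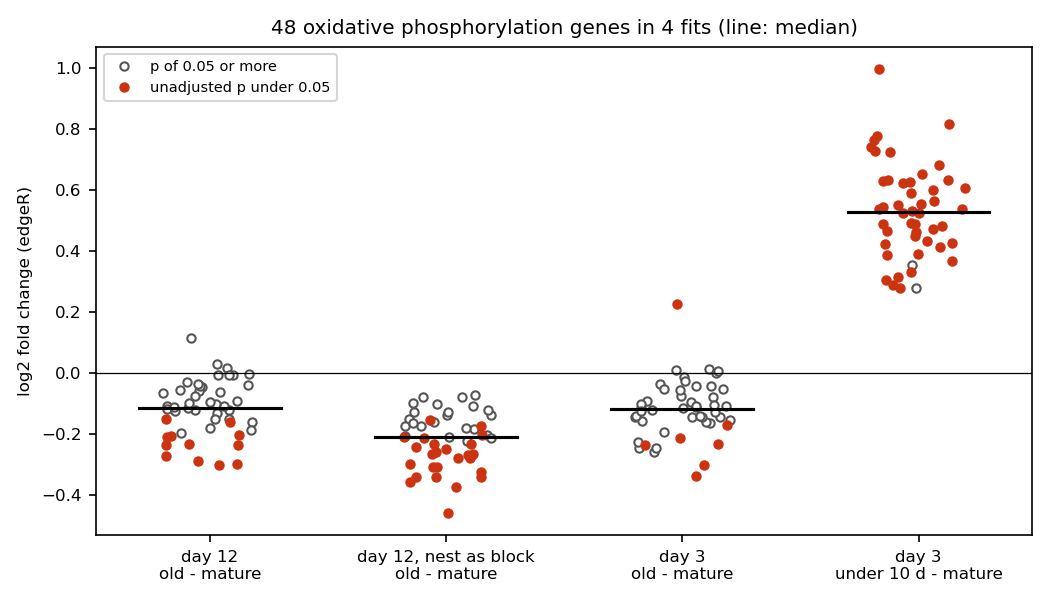
Log2 fold change of each of the 48 oxidative phosphorylation genes (vertical axis) in 4 edgeR fits, with 1 point per gene, filled where the unadjusted p was under 0.05, and a line at the median. The medians were -0.11 at day 12, -0.21 with nest as a block, -0.12 at day 3 and 0.53 for wasps under 10 days against mature wasps at day 3.

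The same genes were followed over the other ages and at day 3. At day 3, 6 old wasps (24 to 33 days, from 2 nests) and 7 mature wasps (from 4 other nests) had summed levels of 12859 to 17224 CPM (median 14816) and 12922 to 18090 CPM (median 16647). There, 6 of 48 genes were lower and 1 was higher in old wasps at an unadjusted p under 0.05 (3.46% and 3.93% of all genes), 44 were negative, and the median was -0.12. Wasps aged 3 to 9 days at day 3 (8 wasps) had 17174 to 33926 CPM (median 23798). Set against the same 7 mature wasps, a comparison chosen after the values were seen, 46 of the 48 genes were higher in these young wasps and 0 lower at an unadjusted p under 0.05 (6.03% of all genes were higher), with a median log2 fold change of 0.53. The muscle markers were higher in the young wasps for 5 of 16 genes with a median of 0.67, and their part was not tested. At day 12 the wasp aged 3 days had 37640 CPM and the wasp aged 8 days had 16773 CPM. The difference in these genes between the first days of adult life and 11 to 18 days was thus larger than that between 11 to 18 and 23 to 28 days, although no test set one against the other.

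**Figure D5:**
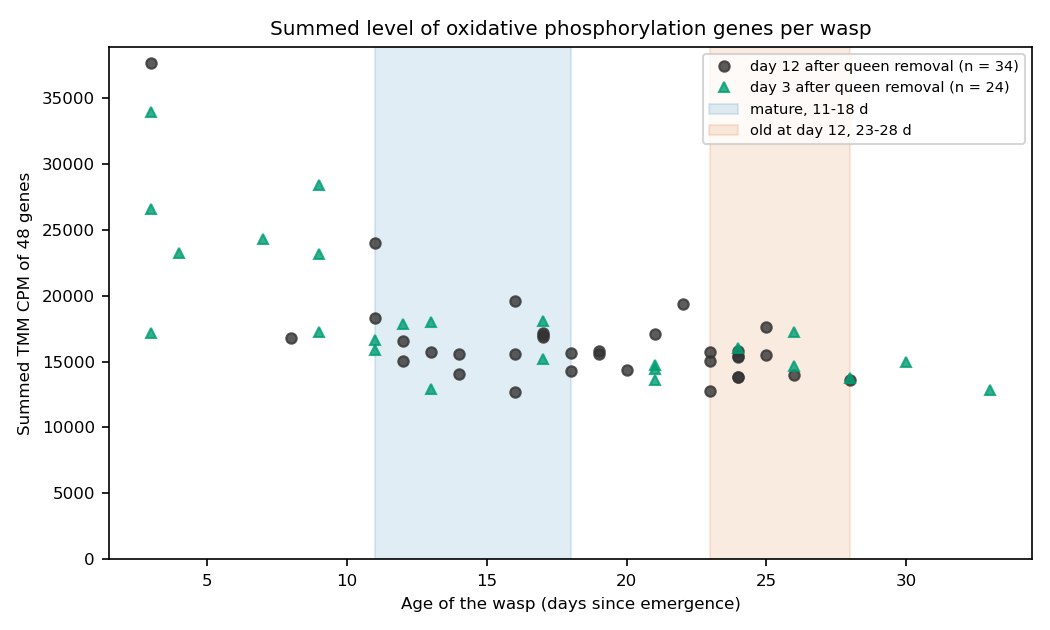
Summed level of 48 oxidative phosphorylation genes (vertical axis, TMM CPM) against age in days (horizontal axis) for 34 day 12 wasps (circles) and the day 3 wasps (triangles); shaded bands mark the mature and old ages. Levels run up to 37640 CPM in wasps under 10 days and, from 11 days on, lie between 12715 and 23988 CPM with the 2 bands overlapping.

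Genes for cytosolic ribosomal proteins lay on the higher side. Of 60, 12 were higher and 0 lower in old wasps at an unadjusted p under 0.05, and the median log2 fold change was 0.09. *RpL21* had 198 to 411 CPM in old wasps (median 282) and 188 to 352 CPM in mature wasps (median 217), and 14 of 15 mature wasps lay below the old median. Its log2 fold change was 0.34 (SE 0.10, adjusted p = 0.211). *RpL36*, *RpL38* and *RpS9* stood at 0.19 each. Mature replicate 8, whose counts were taken up in part by the genes described above, was the highest mature wasp for each of these 4 genes, and without it 23 of 60 were higher with a median of 0.12. The share over all genes in that fit is not given here, so the move from 12 to 23 is not read as particular to this list. With nest as a block 2 of 60 were higher (3.46% of all genes) and the median was 0.00. At day 3, where no nest held both ages, 37 of 60 were higher in old wasps, 0 were lower (3.93% and 3.46% of all genes), and the median was 0.24. Of 68 genes for ribosomal proteins of the mitochondrion, 7 were higher and 1 lower at day 12 (median 0.05), and of 29 proteasome subunits 3 were lower and 0 higher (median -0.05).

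Neural gene lists held few genes past the unadjusted threshold. Of 30 neurotransmitter receptor genes, 3 were higher and 0 lower in old wasps, with a median of 0.09, and all 3 were receptors of GABA, the main inhibitory transmitter of the insect brain, or of that receptor family. *GABA-B-R3* had 47.9 to 196 CPM in old wasps (median 72.9) and 33.8 to 96.3 CPM in mature wasps (median 47.8), with every old wasp above the mature median and 14 of 15 mature wasps below the old median. Its log2 fold change was 0.75 (SE 0.20, adjusted p = 0.169), with 5 of 5 nests higher in old wasps, and DESeq2 called it. *GABA-B-R2* was at 0.38 and *Grd* at 0.28. At day 3 they stood at -0.39, -0.18 and -0.54. There 0 of the 30 receptor genes were higher and 3 lower (3.93% and 3.46% of all genes). Without day 3 mature replicate 23 they stood at -0.08, -0.13 and -0.38, with 0 higher and 2 lower. The share over all genes in that fit is not given here, and these few genes are not read as a change of the list. The difference between the days was 1.14 for *GABA-B-R3* (interaction, unadjusted p = 0.012) and did not pass adjustment.

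Of 21 genes for the synthesis and transport of transmitters, 3 were lower and 1 was higher in old wasps. *Gs2*, the glutamine synthetase with which glia recycle glutamate, had 1028 to 2246 CPM in old wasps (median 1906) and 1588 to 2740 CPM in mature wasps (median 2135), a log2 fold change of -0.24 (SE 0.11, adjusted p = 0.41), and it was lower in old wasps in each of the 5 nests with both ages. The glutamate transporter *Eaat-2* and the GABA transporter *Gat-1B*, both used by glia, were at -0.32 and -0.28 (adjusted p = 0.292 for both). The glial identity factor *repo* was at -0.28 (adjusted p = 0.292), and of the 7 glia markers 2 were lower and 0 higher with a median of -0.16. Glia markers summed to 1903 to 3194 CPM in old wasps (median 2754) and 2370 to 3807 CPM in mature wasps (median 3109). Neuron markers summed to 1965 to 3051 CPM (median 2642) and 1835 to 2887 CPM (median 2461), and 1 of 10, the sodium channel *para*, was higher in old wasps (0.39). Among neuropeptides and their receptors, 4 of 20 were lower (*Dh44-R1* at -0.42, *ITP* at -0.40, *CCAP-R* at -0.31 and *AstA-R1* at -0.28) and 1 was higher (*ETHR* at 0.56). *Dh44-R1*, the receptor of a diuretic hormone, had the smallest p of these (adjusted p = 0.169).

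Other lists gave 1 gene or none in a direction, apart from odorant binding and chemosensory proteins, with 2 of 6 lower, and markers of hemocytes and tracheae, with 2 of 6 lower (*serp* and *verm*, which shape chitin in Drosophila tracheae, at -1.26 and -0.57). Summed over the 6 markers of hemocytes and tracheae, the median was 431 CPM in old and 424 CPM in mature wasps. The median of *serp* was under 1 CPM, and its highest values were those of mature replicates 17 and 18 (4.73 and 5.17 CPM). *Obp10*, an odorant-binding protein, had 852 to 2065 CPM in old wasps (median 1275) and 1288 to 2228 CPM in mature wasps (median 1771), all 15 mature wasps lay above the old median, and the log2 fold change was -0.43 (SE 0.13, adjusted p = 0.204). The other lower gene of the odorant binding list, *Obp1*, was highest in mature replicates 1 and 8 (14.9 and 11.0 CPM). Its log2 fold change at day 3 was 2.72 (edgeR, unadjusted p = 0.0772). For synaptic vesicle genes the count was 1 higher of 21, for heat shock proteins and chaperones 1 lower of 16, for clock genes 1 lower of 5 (*cyc*, at -0.46), for cuticle proteins 1 in each direction of 14 (*CPR28* at -1.33 and *Cht7* at 0.35), and for immune genes 1 in each direction of 8. The lower immune gene, *Tollo*, was highest in mature replicates 1 and 8 (4.65 and 4.74 CPM). Storage and yolk proteins and markers of fat body each had 1 of 9 lower and 0 higher, and gland markers had 1 of 5 in each direction. Antioxidant enzymes (8 genes), ribosome biogenesis factors (13 genes) and hydrocarbon synthesis genes (4 genes) had 0 in either direction.

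Photoreceptor markers differed more between single wasps than between the ages. All 20 had positive log2 fold changes (median 0.25), but only 1 had an unadjusted p under 0.05. The long-wavelength opsin *Lop1* had 5.02 to 3902 CPM in old wasps (median 175) and 5.12 to 3282 CPM in mature wasps (median 34.7), and mature replicate 27 was the only mature wasp above 188 CPM. For *Lop1* the log2 fold change was 1.37 in edgeR (SE 0.95, adjusted p = 0.623) and 3.70 in DESeq2 (adjusted p = 0.00012), which replaces single extreme counts. The ultraviolet or blue opsin gene *Rh5* behaved likewise (1.16 against 3.25). At day 3, 15 of the 20 photoreceptor markers were negative and *Lop1* was at -2.80 (unadjusted p = 0.128). There 1 wasp, mature replicate 23, had 33860 CPM summed over the markers, against medians of 5302 CPM in old and 4239 CPM in mature wasps, and 12938 CPM of *Lop1*. Without it, in a fit chosen after the values were seen, 14 of the 20 markers were positive and *Lop1* was at -0.29 (unadjusted p = 0.84). How much of the retina stayed with each dissected brain was not measured.

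The day 3 wasps gave no gene past adjustment either (0 of 10794, 0.0%; smallest adjusted p = 0.239). At an unadjusted p under 0.05 there were 797 genes, 424 higher and 373 lower in old wasps, and without nest 47, which held 4 of the 6 old wasps, there were 375. The lists of the 2 days shared 123 genes, which is 10.5% of the day 12 list and 15.4% of the day 3 list, while 7.38% of all genes were on the day 3 list, and 96 of the 123 had the same sign. Of the 1175 genes of the day 12 list, 730 (62.1%) had the same sign at day 3, against 54% over all genes tested. No gene had a different age effect at the 2 days after adjustment (interaction, 0 genes, smallest adjusted p = 0.1001, 660 genes at an unadjusted p under 0.05).

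Age as a number gave a different count. Over all 34 day 12 wasps, 290 genes changed with age in days after adjustment, 72 rising (0.667%) and 218 falling (2.02%), and 33 of the 48 oxidative phosphorylation genes were among those that fell (68.8%). Few of these calls remained without the youngest wasps, whose removal also narrowed the range of ages. Without the 2 wasps under 10 days, 1 gene was called (LOC107070465, rising by 0.05 log2 units per day, adjusted p = 0.0316), while 571 genes were higher (5.29%) and 494 lower with age (4.58%) at an unadjusted p under 0.05. Without only the wasp aged 3 days, 1 gene was called, a neuropeptide-like gene (LOC107064843) that fell by 0.40 log2 units per day (adjusted p = 0.000982). Of the 290 genes, 288 kept their sign in the 32 wasps of 11 days and older, and 205 had an unadjusted p under 0.05 there. These 32 wasps are among the 34 from which the 290 genes were called, so these counts are no separate check. With the ovarian index as a covariate, the comparison of old and mature wasps gave 0 genes past adjustment, with 523 higher and 445 lower at an unadjusted p under 0.05.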

How the data were processed

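Brain RNA of 96 wasps was sequenced as paired-end reads, and GEO's notes name Trimmomatic 0.36 and STAR 2.7. Ribosomal reads were removed, reads were trimmed and aligned to transcripts of the *P. dominula* annotation, and the authors deposited raw counts per gene, not normalized, after StringTie. Whether counting used strand is not given in the sources used here. Entries that repeated a gene were summed (11335 entries, 11140 genes), and the entry with no name, 0.0216 to 0.0706% of each library, was left out. A gene was kept (10794 were) when its total in at least 1 of the 4 experimental groups exceeded 20 counts. Symbols came from the RefSeq gene table (assembly Pdom_raw_medaka, names only), which covered 10144 genes. Product names came from the study's supplementary tables. Together they gave a symbol or product name for 6745 of the kept genes.

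Groups followed the labelled treatment, day and age, and the members, the gene lists and the list genes described were chosen with earlier results of these data known. Old and mature wasps were compared with edgeR 4.0.16 (quasi-likelihood test, TMM scaling, R 4.3.3) with Benjamini-Hochberg adjustment over all genes tested and a threshold of 0.05. Fold changes are on the log2 scale, old over mature, with the standard error derived from the fit. CPM were scaled over all 96 libraries. Replicate numbers name wasps and pair none of them, the wasps of 1 group are separate animals but can share a nest, and p-values then treat nestmates as independent unless nest is a block. No 2 libraries were copies of each other (largest correlation 0.978). The rule for named genes took genes past the threshold, which edgeR gave none of, and vitellogenin, *Kr-h1*, *jhamt*, hexamerins, defensin-1, collagen IV, *Cyp4g15* and *bond* whatever their result. Alternatives were DESeq2 1.42.0, other scalings and filters, nest as a fixed block or, in limma 3.58.1 (voom), as a random term, each nest left out, the ovarian index as a covariate and age as a number. Chosen after seeing the data were the fits without mature replicates 1 or 8, the block without both, age without the wasp of 3 days, young against mature wasps at day 3, and day 3 without mature replicate 23. The authors' ovarian index entered as a covariate only, and its values are not printed.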

Additional observations from a re-analysis of the deposited data

Results flagged for a closer look

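Levels of the genes named whatever their result were checked for a single wasp standing apart from its group, in the groups of 4 to 10 wasps only, which leaves out the old and mature groups of day 12. Of 52 gene and group pairs, 16 held such a wasp. A chance rate of about 1 in 20 assumes normally spread levels and independent pairs. It cannot be used here, since some of these genes had few counts and the same wasp was flagged for several genes. Whether the 16 exceed chance was therefore not tested. All values are TMM CPM, with the nearest other wasp of the group second.

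In the yolk and storage proteins, day 3 replicate 1 of the wasps under 10 days had 7251 of *Vgn* (next 1897), 8529 of *Hex70a* (next 372), 179 of *HEX70b* (next 6.26) and 142 of *Hex70c* (next 6.58). Elsewhere *HEX70b* was 6.90 in day 3 old replicate 3 (next 1.40) and 8.00 in day 3 mature replicate 15 (next 1.11), *Hex70c* was 1.19 in day 3 old replicate 3 (next 0.183), and *Hex110* was 12.5 in day 3 mature replicate 15 (next 2.48). The antimicrobial peptide gene *Def1* was 13.3 in replicate 30 of the wasps aged 19 to 22 days at day 12 (next 0.683) and 0.531 in day 3 old replicate 3, where the other old wasps were at 0. Replicate 30 was also the wasp with 67842 CPM of glucose dehydrogenase.

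In the hydrocarbon genes, *Cyp4g15* was 28.1 in replicate 32 of the wasps aged 19 to 22 days at day 12 (next 2.36), 28.0 in day 3 old replicate 9 (next 4.89) and 95.1 in day 3 mature replicate 23 (next 8.90). *bond* was 14.8 in the same replicate 32 (next 3.55), 24.8 in day 3 old replicate 8 (next 1.89) and 6.08 in day 3 mature replicate 23 (next 2.25). Both genes were thus high in 2 of the same wasps, of which day 3 mature replicate 23 was also the wasp with 33860 CPM of photoreceptor markers.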

How the results depend on the processing

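The count of 0 genes past adjustment moved to 38 under DESeq2, to 1 with edgeR's own filter on low counts (LOC107070465, adjusted p = 0.0474), to 290 with age as a number over 34 wasps, and to 1 each over the 32 wasps of 11 days and older and without the wasp of 3 days. Leaving out each nest in turn gave 0 to 2 genes (1 without nest 3, 2 without nest 33). The test against a 1.5-fold difference gave 2 genes under DESeq2. Other scalings, no filter, the nest block, limma voom and the ovarian covariate left both counts at 0, and the causes of the moves were not tested. With nest as a block, 812 genes had an unadjusted p under 0.05 in place of 1175, and without nest 4, 385 were higher and 290 lower. Of 1511 values of 66 named genes under alternatives, 10 in 6 genes changed sign: *Vgn* at -0.34 with the ovarian covariate, *Hex70a* at 0.12 without nest 33 (range without each nest in turn -1.005 to 0.12), *Hex110* at 0.26 with the nest block, 0.33 in limma voom and 1.63 in the block without 2 wasps, *Cyp4g15* at -0.72 in DESeq2, -0.45 in limma voom and -0.75 without nest 48 (range -0.75 to 1.34), LOC107066896 at 0.11 in limma voom, and the kainate-type glutamate receptor gene LOC107065660 at -0.093 in the block without 2 wasps. Another 54 values passed adjustment under an alternative.

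No paired analysis was possible because replicate numbers only name wasps, and nestmates were compared through the nest block instead. A nest block at day 3 or in the comparison of the days could not be fitted, since no nest held both ages at day 3. Depth, at 10480464 counts or more per library, limits genes of few counts such as *Hex70c*, and the spread between wasps limits the rest.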
